A study of Mus musculus with 2 samples.

Results

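Titin, nebulin and the nebulin-related anchoring protein N-RAP are encoded by Ttn, Neb and Nrap, and the chromatin of these 3 of 21938 protein-coding genes was described in the gastrocnemius of the mouse. The 3 genes were chosen by name, and every DNase-seq peak and footprint inside each gene and within 20 kb on either side of it was counted. These windows held 37 of the 97499 peaks of replicate 1 and 38 of the 61664 peaks of replicate 2. DNase-seq maps accessible chromatin by sequencing DNA ends that DNase I releases from nuclei, and a footprint is a short stretch inside accessible chromatin where fewer cuts are seen. The tissue came from male mice of strain B6CASTF1/J, the F1 hybrid of C57BL/6J and CAST/EiJ, aged 25 days, with no treatment named. There is 1 group of 2 libraries, replicate 1 and replicate 2. The labels number different males but give both libraries the same donor identifier, and they name sequencing instruments for replicate 1 alone. Reads of the 2 parental alleles are not separated, and positions and sequences are those of mm10, the C57BL/6J reference. With 1 group, no condition is compared and no p-value is given.

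Titin is the giant elastic protein that spans from the Z-disc to the M-band of the sarcomere and sets passive tension, and its pre-mRNA is spliced into fast, slow and cardiac forms. Nebulin is the giant protein that runs along the thin filament of skeletal muscle and stabilises it. N-RAP is a smaller nebulin-repeat protein with a LIM domain, known as a scaffold for myofibril assembly and as a component of myotendinous junctions and of the intercalated discs of the heart.

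Peak signals were deposited by the authors and came in whole multiples of 0.00591 in replicate 1 and 0.00854 in replicate 2. Read as 1 tag scaled to library size, these steps correspond to 169 M tags in replicate 1 and 117 M in replicate 2, so replicate 1 was the deeper library. The median signal over all peaks was 0.674 in replicate 1 and 0.974 in replicate 2. All 6 myofibre marker genes had a peak within 1 kb of a start in both libraries, and none of the 4 cardiomyocyte or the 3 hepatocyte markers had one in either. Some markers of other cells of muscle had such a peak too, among them all 3 endothelial genes in both libraries. In whole tissue, a site open in few nuclei and a site weakly open in many cannot be told apart.

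The sequences below are from a selection of the start peaks and of other peaks, read along the minus strand on which all 3 genes lie. Not every start peak is shown, nor every peak with a motif match inside a footprint. The Nrap exon 30 peak is among them, although none of the motif matches in it lay inside a footprint. Untranslated bases were trimmed. Intron and exon labels follow the peak midpoint, and the Ttn intron 8, Nrap intron 2 and Nrap exon 30 sequences each cross an exon boundary. Capitals mark bases inside footprints of both libraries, or of replicate 1 for the peaks that it alone had.
Ttn start peak, both libraries, chr2:76982558-76982660, minus strand: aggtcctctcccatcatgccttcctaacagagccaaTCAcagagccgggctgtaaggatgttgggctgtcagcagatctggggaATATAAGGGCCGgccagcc
Ttn intron 1, replicate 1 alone, chr2:76980303-76980500, minus strand: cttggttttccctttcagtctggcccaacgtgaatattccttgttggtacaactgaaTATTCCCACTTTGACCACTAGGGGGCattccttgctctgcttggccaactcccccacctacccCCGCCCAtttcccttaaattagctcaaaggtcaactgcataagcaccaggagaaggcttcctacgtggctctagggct
Ttn intron 8, both libraries, chr2:76969047-76969200, minus strand: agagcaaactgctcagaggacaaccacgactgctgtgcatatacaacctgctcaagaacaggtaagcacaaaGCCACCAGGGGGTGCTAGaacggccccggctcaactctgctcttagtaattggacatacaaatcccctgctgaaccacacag
Downstream of Ttn, in an intron of Plekha3, both libraries, chr2:76690941-76691100, minus strand: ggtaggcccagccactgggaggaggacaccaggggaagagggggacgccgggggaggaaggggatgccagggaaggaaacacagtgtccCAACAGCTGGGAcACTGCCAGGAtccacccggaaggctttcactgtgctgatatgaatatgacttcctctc
Neb start peak, both libraries, chr2:52335763-52335840, minus strand: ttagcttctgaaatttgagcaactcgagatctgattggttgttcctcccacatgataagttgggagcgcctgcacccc
Neb start peak, replicate 1 alone, chr2:52335141-52335360, minus strand: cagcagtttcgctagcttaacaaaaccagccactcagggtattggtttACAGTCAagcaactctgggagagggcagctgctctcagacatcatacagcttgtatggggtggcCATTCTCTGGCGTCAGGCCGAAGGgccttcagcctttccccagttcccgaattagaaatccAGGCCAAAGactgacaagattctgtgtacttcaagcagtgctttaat
Nrap start peak in intron 2, both libraries, chr19:56389241-56389459, minus strand: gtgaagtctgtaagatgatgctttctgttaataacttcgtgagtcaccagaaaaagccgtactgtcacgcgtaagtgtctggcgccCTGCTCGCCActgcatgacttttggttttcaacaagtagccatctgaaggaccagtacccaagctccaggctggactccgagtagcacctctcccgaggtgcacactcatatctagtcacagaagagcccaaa
Nrap intron 21, both libraries, chr19:56356561-56356720, minus strand: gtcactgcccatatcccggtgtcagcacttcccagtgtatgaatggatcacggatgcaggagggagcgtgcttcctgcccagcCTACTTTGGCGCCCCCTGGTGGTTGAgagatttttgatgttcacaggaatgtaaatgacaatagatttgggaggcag
Nrap exon 30, both libraries, chr19:56342121-56342300, minus strand: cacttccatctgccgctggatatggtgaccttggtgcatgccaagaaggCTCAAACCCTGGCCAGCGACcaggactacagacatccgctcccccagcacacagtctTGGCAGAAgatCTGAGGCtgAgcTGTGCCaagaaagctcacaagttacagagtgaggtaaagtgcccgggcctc
The Ttn start peak, and the Neb start peak of both libraries, are shown in the part that lies outside annotated untranslated or noncoding exons. The sequences are from the RefSeq GRCm38.p6 genome, the same assembly as mm10.

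Ttn (ENSMUSG00000051747.14, chr2:76703980-76982547, 279 kb) has 25 annotated transcripts with 16 distinct starts, and exons cover 41.9% of it. Its start peak lay on the 5′ end of the gene in both libraries, at chr2:76982461-76982660 in replicate 1 and chr2:76982461-76982640 in replicate 2. The signal was 2.17 in replicate 1 and 1.79 in replicate 2, with a mean of 1.98 ± 0.272 (SD, n = 2). Ttn thus had a start peak in both libraries, as 66.5% of coding genes had in replicate 1 and 64.2% in replicate 2. Among coding genes with a start peak, Ttn ranked 9698 of 14582 in replicate 1 and 10434 of 14084 in replicate 2, below the medians of 3.57 and 3.43. The peak held 4 footprints in each library, and 3 of those of replicate 1 overlapped a footprint of replicate 2. Replicate 1 alone had 2 more peaks inside intron 1, with signals of 1.25 at 0.646 kb and 1.06 at 2.15 kb from the 5′ end. The peak at 2.15 kb lay next to the annotated internal start of Ttn-204. Of the 16 annotated starts, 13 had no position with a q-value below 0.05 within 1 kb in either library. These 13 lie 44.0 to 156 kb into the gene.

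Neb (ENSMUSG00000026950.17, chr2:52136647-52378474, 242 kb) has 13 transcripts with 12 starts, and exons cover 11.0% of it. Its accessible start was not the annotated 5′ end. Neither the outermost start, that of Neb-212, nor the start of the 157-exon transcript Neb-202, 39.7 kb further in, had a listed position within 1 kb in either library. The start peaks lay 3.06 and 3.55 kb downstream of the start of Neb-202, in its intron 1, next to the annotated starts of Neb-204 and Neb-203. The peak found in both libraries, at chr2:52335641-52335840 in replicate 1, had a signal of 1.19 in replicate 1 and 1.10 in replicate 2. The highest start peak of replicate 1, at chr2:52335141-52335360, had a signal of 1.32 and no counterpart in replicate 2. With the highest start peak of each library, Neb averaged 1.21 ± 0.157 (SD, n = 2) and ranked 11281 in replicate 1 and 11966 in replicate 2. Of its 12 starts, 10 had no listed position within 1 kb in either library.

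Nrap (ENSMUSG00000049134.15, chr19:56320035-56390037, 70.0 kb) has 6 transcripts with 5 starts, and exons cover 7.87% of it. The start peak found in both libraries lay 0.687 kb inside the gene in intron 2, at chr19:56389241-56389459 in replicate 1, with a signal of 1.12 in replicate 1 and 0.957 in replicate 2. Its mean was 1.04 ± 0.118 (SD, n = 2), and Nrap ranked 11707 in replicate 1 and 12378 in replicate 2. A peak on the 5′ end itself, with a signal of 1.06, was found in replicate 1 alone. Replicate 1 alone also had a peak of 0.775 near the internal start of Nrap-206, 11.0 kb into the gene. Start signals followed the order Ttn, Neb, Nrap in each library. Ttn exceeded Neb by 0.765 on average, more than the spread of either gene between libraries. Neb exceeded Nrap by 0.173 on average, which is close to the spread of each (SD 0.157 and 0.118).

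The 3 windows differed in how many peaks each library held and in how many were shared. Ttn had 10 peaks in replicate 1 and 27 in replicate 2, and 4 in each library overlapped a peak of the other by at least 1 bp. That is 40.0% of the peaks in replicate 1 (95% Wilson interval 16.8 to 68.7) and 14.8% in replicate 2 (5.92 to 32.5). These intervals treat peaks as independent, yet 23 of the 27 in replicate 2 lay together over or just beyond the 3′ part of the gene. Neb went the other way, with 16 peaks in replicate 1 and 5 in replicate 2, and 5 were shared, which is 31.3% of those of replicate 1 and all 5 of replicate 2. Nrap had 11 peaks in replicate 1 and 6 in replicate 2, and 6 were shared, which is 54.5% of those of replicate 1 and all 6 of replicate 2. Over all peaks, 51.0% of those of replicate 1 and 79.7% of those of replicate 2 overlapped the other library, so only the Ttn window fell far below the share of replicate 2. In the shorter and stricter peak list, which holds 61.7% of the peaks of replicate 1 and 57.6% of those of replicate 2, Ttn had 5 peaks in replicate 1 and 14 in replicate 2. Neb had 7 peaks in replicate 1 and 0 in replicate 2 in that list, so it had no shared peak there. Nrap had 8 peaks in replicate 1 and 5 in replicate 2.

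**Figure D1:**
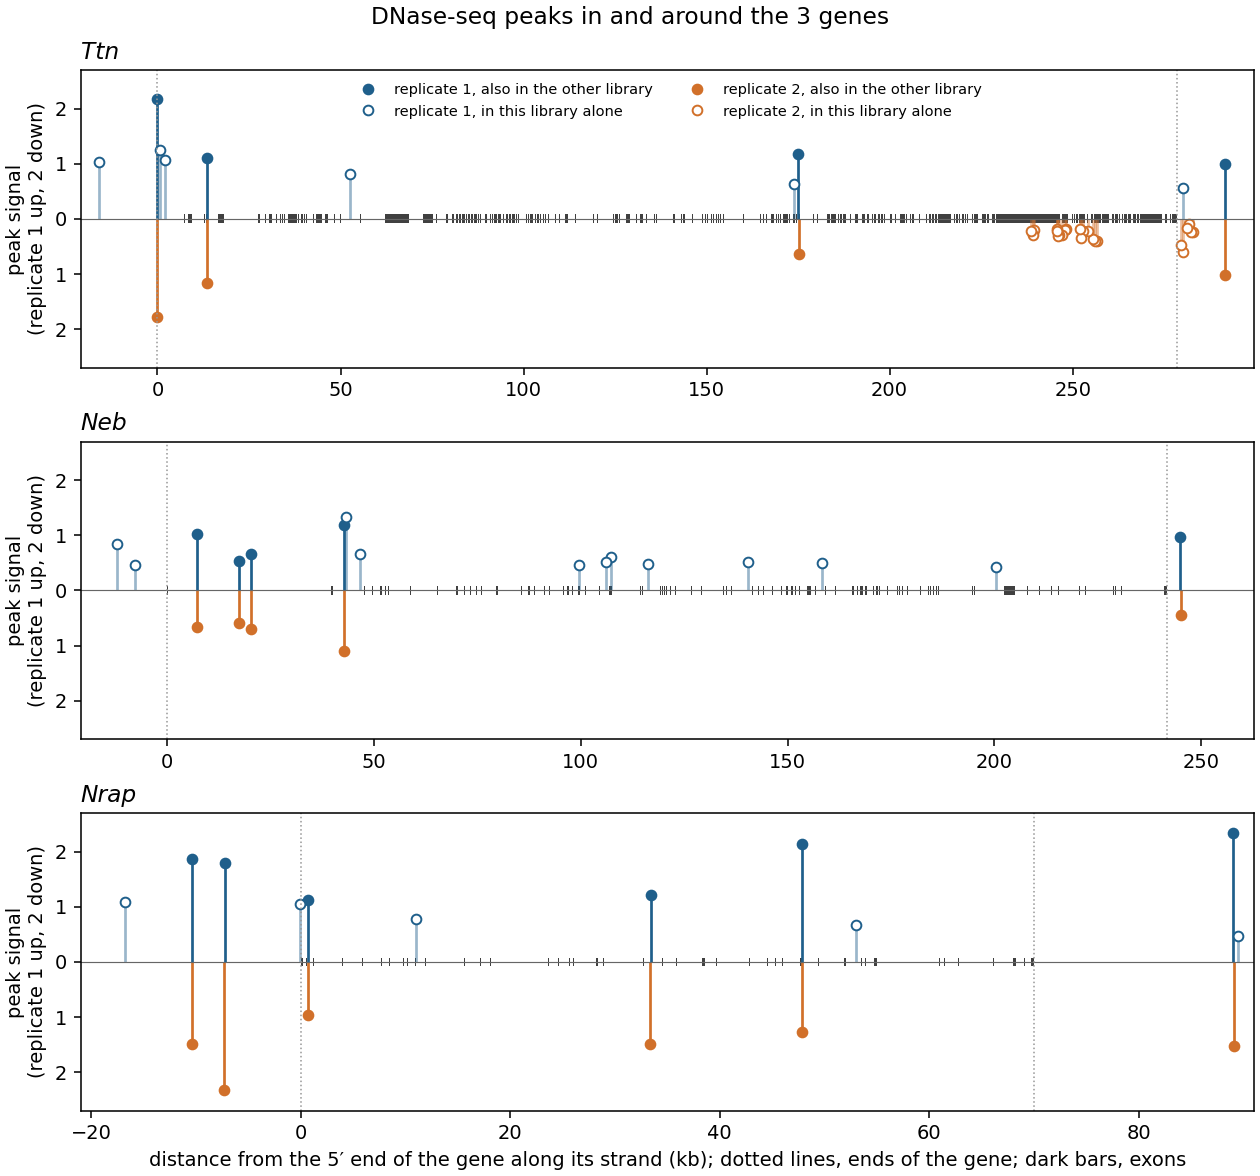
Signal of each peak (authors' deposited value, replicate 1 upward and replicate 2 downward) against its distance from the 5′ end of the gene in kb, for Ttn, Neb and Nrap. Filled points are peaks found in both libraries, open points peaks of 1 library; the 23 open points of replicate 2 all lie over the 3′ part of Ttn and just beyond it.

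Replicate 2 had 23 peaks of its own, and every one of them lay over the 3′ part of Ttn or just downstream of it. This set was singled out after its values were seen. Of the 23, 17 had their midpoint in an exon between chr2:76725875 and chr2:76744040, 239 to 257 kb from the 5′ end, and 6 lay between chr2:76699641 and chr2:76703220, beyond the 3′ end of the gene. Of the bases of these 17 peaks 99.7% were exonic, against 78.6% of the 18.2 kb span that they cover, and 15 of the 17 lay wholly inside an exon. The longest exon of Ttn, exon 309 of Ttn-203 with 17106 bp, at chr2:76736064-76753169, held 7 of them. In the same span replicate 1 had 0 peaks and 0 listed bases, against 4316 listed bases in replicate 2. The antisense gene Gm13938 overlaps the span from the other strand, and all 17 midpoints fall in its introns.

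These peaks were weak in signal. Their signals ran from 0.0854 to 0.607 with a median of 0.231, which is 10 to 71 tags on the reading above and a median percentile of 3.49 among the peaks of replicate 2. The strongest, at chr2:76702201-76702380 downstream of the gene, had a signal of 0.607 and a lowest q-value of 1.40e-29. It ended at the base before a peak of replicate 1, chr2:76702381-76702532, with a signal of 0.562, so the 2 peaks adjoined without overlapping and were not counted as shared. Of the 23 peaks, 12 held a footprint and 13 were in the shorter list. Of all coding genes, Ttn had the most exonic peaks found in replicate 2 alone, 17, ahead of Shisal1 with 14, Mroh2a with 13 and Plec with 12, all named after their counts were seen. These counts are not scaled to exon length, of which Ttn has 117 kb. Per kb of exon Ttn had 0.146 such peaks, fewer than Shisal1 with 2.14, Mroh2a with 1.53 and Plec with 0.663. Those genes were picked for their high counts, and no rate per kb over all coding genes is given. Of 21938 coding genes, 692 had any such peak in replicate 2. In replicate 1 the count for Ttn was 1, and the highest was 7, for Gab2. Of the 17 exonic peaks, 9 lay in 10 kb windows with 8 or more peaks, which held 2.10% of all peaks in replicate 1 and 5.82% in replicate 2. Outside such windows Ttn still had 18 peaks in replicate 2, against 10 in replicate 1. The part of crowding and of the lower depth of replicate 2 in this pattern was not tested.

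**Figure D2:**
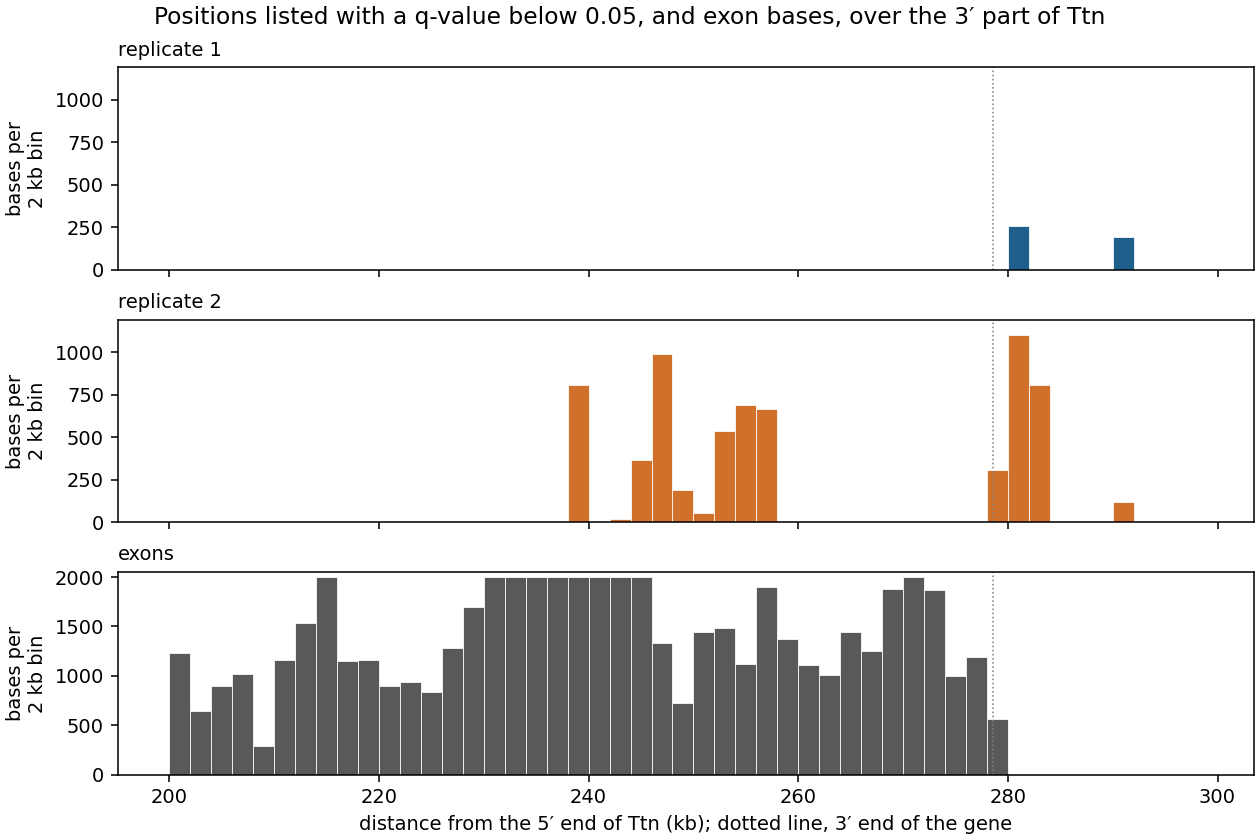
Bases listed with a q-value below 0.05 in 2 kb bins, for replicate 1 and replicate 2, and exon bases in the same bins, against the distance from the 5′ end of Ttn in kb. Between 238 and 258 kb replicate 1 has 0 listed bases in each bin, while bins of replicate 2 reach 992.

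Outside those peaks, replicate 2 had 4 peaks at Ttn, all of them shared. Besides the start peak these were in intron 8, in intron 222 and downstream. The intron 8 peak, chr2:76969047-76969200, had a signal of 1.10 in replicate 1 and 1.17 in replicate 2. The intron 222 peak, chr2:76807361-76807620, had 1.18 in replicate 1 and 0.632 in replicate 2 and was the more uneven of the pair of intronic sites. The downstream peak, chr2:76690941-76691100, lies in an intron of the neighbouring gene Plekha3 and had 0.994 in replicate 1 and 1.03 in replicate 2. Replicate 1 alone had a further peak upstream of Ttn, 1 in exon 221 and 1 in intron 43, with signals of 1.03, 0.627 and 0.810.

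At Neb, 3 of the shared peaks lay in the extended 5′ part of the gene model, outside Neb-202. They were 7.19, 17.3 and 20.2 kb from the 5′ end, and their signals were 1.03, 0.526 and 0.657 in replicate 1 and 0.666, 0.590 and 0.701 in replicate 2. The remaining shared peak lay downstream of the gene, at chr2:52133461-52133660 in replicate 1, with a signal of 0.976 in replicate 1 and 0.444 in replicate 2, and the pair overlapped by 15 bp. Along the body beyond the start, 46.5 to 200 kb from the 5′ end, replicate 1 had 8 peaks with signals of 0.426 to 0.657, and replicate 2 had none. Of these 8, 4 had their midpoint in an exon, 3 of them in exons 45, 50 and 127 of Neb-202. Per kb of exon, these 4 exonic peaks of replicate 1 alone come to 0.15, and the 17 of Ttn in replicate 2 alone to 0.146. The 2 rates come from different libraries and are not directly comparable. Any such peak was found in 1780 coding genes in replicate 1 and in 692 in replicate 2. The 17 of Ttn also lay within 18.2 kb, whereas the 4 of Neb were spread from 99.5 to 200 kb from the 5′ end.

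At Nrap, the strongest shared peaks lay away from the start. A peak in exon 30 of Nrap-202, chr19:56342121-56342300, had a signal of 2.14 in replicate 1 and 1.26 in replicate 2. A peak in intron 21, chr19:56356561-56356720, had 1.22 in replicate 1 and 1.50 in replicate 2. Both were higher than the start peak of Nrap in both libraries. Downstream, the peak at chr19:56300881-56301140, in an intron of Habp2, had 2.34 in replicate 1 and 1.52 in replicate 2. Upstream, the peak at chr19:56400341-56400540 had 1.87 in replicate 1 and 1.50 in replicate 2. Which gene the peaks in the flanks act on was not tested.

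The 15 peaks found in both libraries spanned signals of 0.444 to 2.34. The log2 ratio of replicate 1 over replicate 2, centred on the median of −0.03 over all 52480 shared pairs, ran from −0.34 to 1.17, the highest downstream of Neb. It was positive for 9 of the 15. Only the pair downstream of Neb lay beyond 2-fold of the median, 1 of 15 beside 5.60% of all pairs. The Ttn intron 222 pair, with 0.94, was the nearest below that limit.

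**Figure D3:**
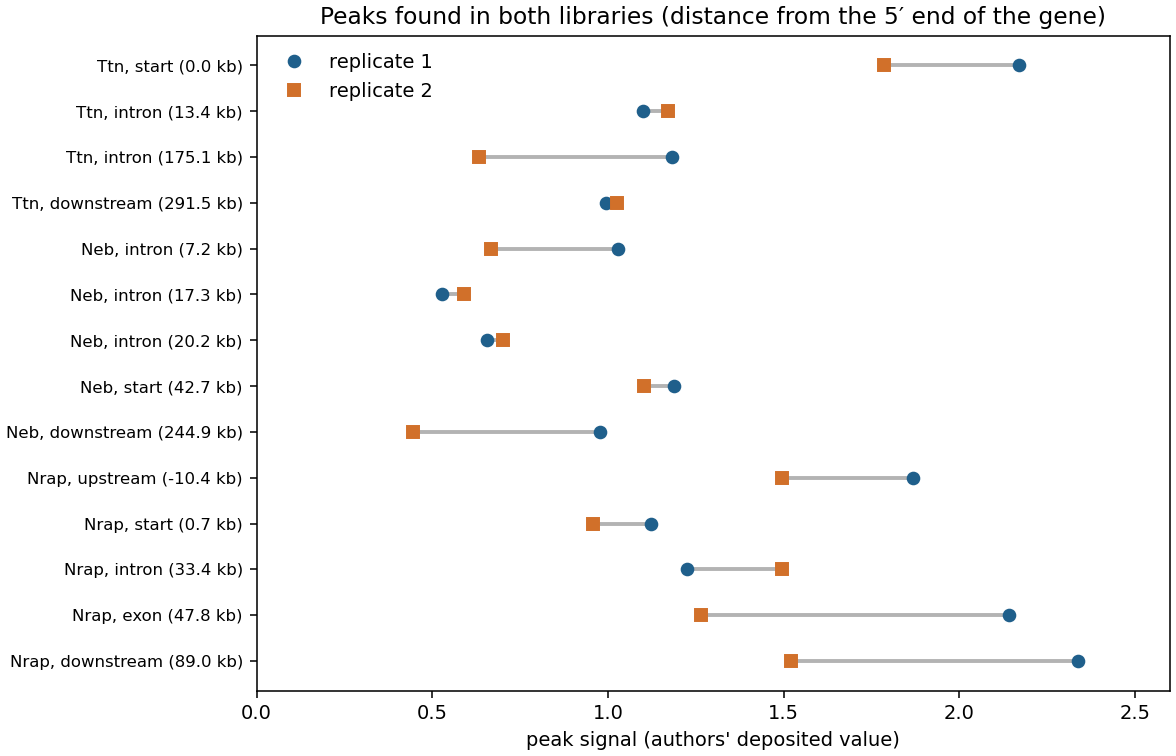
Signal of 14 of the 15 peaks found in both libraries (circles, replicate 1; squares, replicate 2), ordered by gene and by distance from the 5′ end of the gene in kb. The widest ratio is downstream of Neb, 0.976 in replicate 1 and 0.444 in replicate 2, and the Nrap exon and downstream peaks exceed the Nrap start peak.

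Footprints followed the peaks. The Ttn window held 20 footprints in replicate 1 and 31 in replicate 2, of which 18 and 30 lay in a peak. The Neb window held 35 in replicate 1 and 8 in replicate 2, and the Nrap window 30 in replicate 1 and 16 in replicate 2. A footprint lay in 8 of 10 Ttn peaks in replicate 1 and 16 of 27 in replicate 2, and in 15 of 16 Neb peaks in replicate 1 and 4 of 5 in replicate 2. At Nrap all 11 peaks of replicate 1 and all 6 of replicate 2 held one. Over all peaks the shares were 81.4% in replicate 1 and 77.2% in replicate 2. Recurrence differed between the genes. At Nrap 12 footprints of each library overlapped one of the other, and at Ttn 7 of replicate 1 and 8 of replicate 2 did. At Neb 1 of 35 in replicate 1 and 1 of 8 in replicate 2 did, whereas 36.0% of all footprints of replicate 1 and 52.2% of those of replicate 2 overlapped the other library. The Nrap exon 30 peak had 4 footprints in each library, and all 4 of replicate 1 overlapped one of replicate 2 over 42 bases in all. The Neb start peak of both libraries had 1 footprint in each, and they did not overlap.

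The core of the CTCF site, given by name because its letters include ambiguity codes, lay inside footprints at 3 peaks. CTCF is the zinc-finger protein known for boundaries and loops of chromatin. This motif was added after the sequences were seen. In Ttn intron 8 and in Nrap intron 21 all 11 bases of the match lay inside a footprint of both libraries, and in the Ttn intron 1 peak of replicate 1 all 11 lay inside its footprint. Within 150 bp around the peak centre, on either strand, the core was in 2 of 11 shared peaks away from starts, beside 12.4% of all 28826 such peaks, and in 0 of 4 at starts, beside 2.05% of 20934. The E-box CAGCTG, the form bound by the myogenic factor MyoD, was in 2 of the 11, beside 21.2%, and in 0 of the 4, beside 10.4%. In the peak downstream of Ttn, all 6 bases of CAGCTG lay inside a footprint of both libraries. The general E-box CANNTG, which contains CAGCTG, was in 5 of 11, beside 63.8%, and in 2 of 4, beside 39.1%. The TEAD motif GGAATG was in 1 of 4 start peaks, that of Ttn in its trimmed part, beside 5.54%, and in 1 of 11 others, in Nrap intron 21, beside 9.61%. The AP-1 motif TGANTCA was in the Nrap start peak, beside 2.41% of start peaks. Its match lay in the exonic part of that peak, outside the footprints of both libraries. The nuclear receptor motif AGGTCA was in 2 of 11, beside 10.4%. The SP/KLF motif GGGCGG was in none of the 4 start peaks, beside 48.7%. MEF2, CArG, NFI and TATAAA had no match in these windows, which says only that those letters are not there.

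Peaks per length set the 3 genes apart by library. Ttn had 2.15 peaks per 100 kb of its body in replicate 1 and 6.82 in replicate 2, ranks 3531 and 485 of 5007 coding genes of at least 50 kb. Neb had 5.38 in replicate 1 and 1.65 in replicate 2, ranks 1866 and 3045. Nrap had 7.14 in replicate 1 and 4.29 in replicate 2, ranks 1275 and 1133, and was above the medians of 3.90 and 2.13 in both. Listed bases per kb of body were 5.12 for Ttn in replicate 1 and 17.0 in replicate 2, against 10.0 and 3.10 for Neb and 15.7 and 8.64 for Nrap. The medians over those genes were 13.6 in replicate 1 and 8.87 in replicate 2. The density rank of Ttn therefore depended on which library was read, and that of Nrap hardly did. The density of Nrap rests on 5 peaks in replicate 1 and 3 in replicate 2. By listed bases Nrap ranked 2136 in replicate 1, above the median, and 2570 in replicate 2, just below it.

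Genes whose products work with these proteins mostly had start peaks of their own. Of 38 such genes, 36 had a start peak in replicate 1 and 33 in replicate 2, beside the 66.5% and 64.2% given above. Their median signal among those with a peak was 1.77 in replicate 1 and 1.67 in replicate 2, and 8 in replicate 1 and 7 in replicate 2 exceeded the medians of all coding genes with a start peak. Like Ttn, Neb and Nrap, most therefore lay below those medians. All 15 titin partners had a start peak in replicate 1 and 13 in replicate 2. The highest were the M-band protein gene Myom1 with 11.3 in replicate 1 and 8.87 in replicate 2, the fast-fibre α-actinin gene Actn3 with 6.31 and 5.94, and Ankrd2, an ankyrin-repeat protein of the I-band, with 2.77 and 2.72. All 11 thin-filament genes had one in both libraries, led by the tropomyosin gene Tpm1 with 9.46 in replicate 1 and 7.02 in replicate 2, the capping-protein gene Capzb with 7.73 and 5.25, and Tpm2 with 3.74 and 3.05. The other nebulin-repeat genes were Lasp1, with 3.76 in replicate 1 and 3.78 in replicate 2, and Nebl, with 0.379 and 0.598. Of the 8 attachment genes, 6 had a start peak in replicate 1 and 5 in replicate 2. The vinculin gene Vcl had 12.6 in replicate 1 and 7.68 in replicate 2, the talin gene Tln1 had 5.50 and 4.84, and the filamin gene Flnc had 1.82 and 1.96. Tln2 and Csrp3, which encodes the muscle LIM protein, had none in either library. Both regulators of titin splicing had one, Rbm24 with 1.96 in replicate 1 and 1.53 in replicate 2 and Rbm20 with 1.28 and 1.47.

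**Figure D4:**
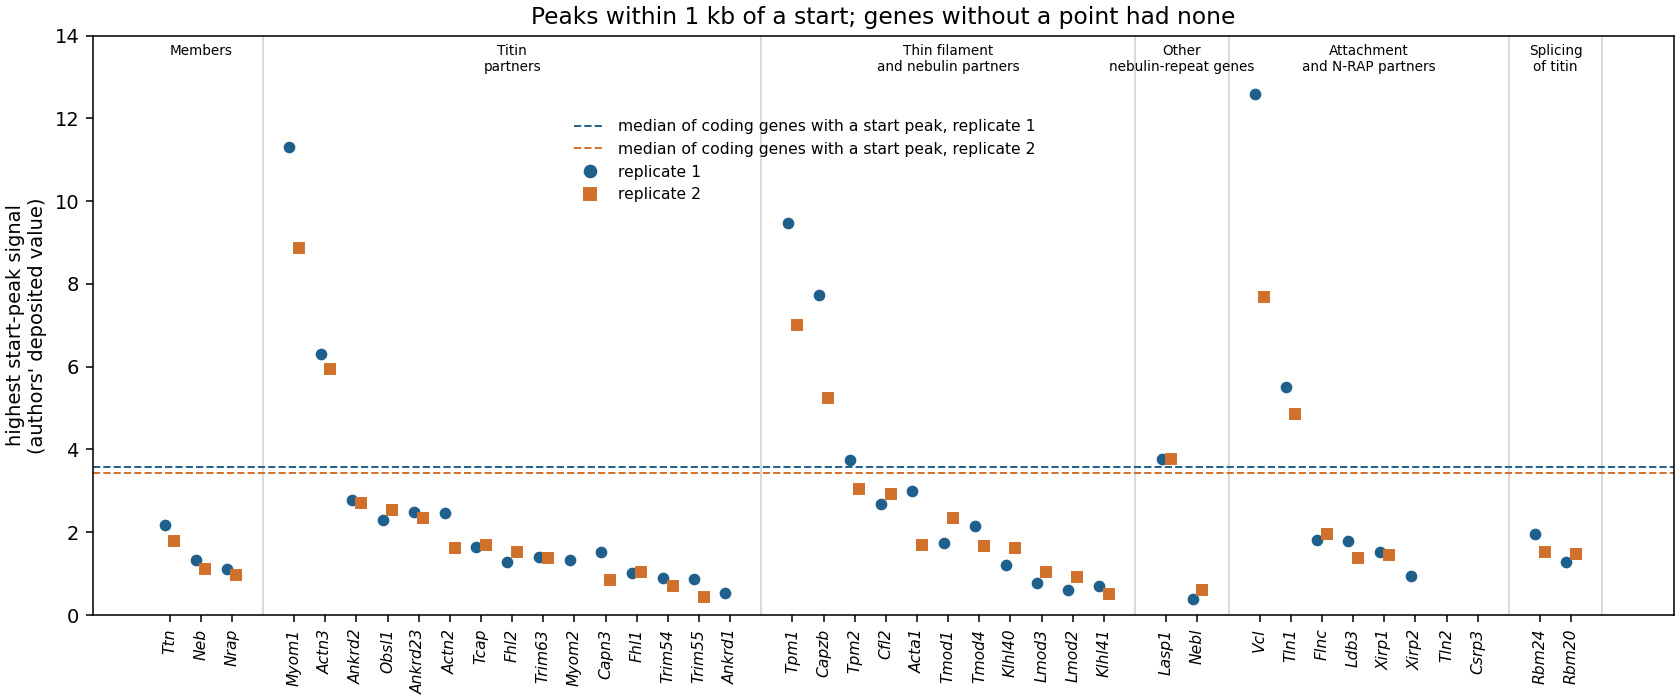
Highest signal among peaks within 1 kb of a start (authors' deposited value; circles, replicate 1; squares, replicate 2) for Ttn, Neb, Nrap and 38 genes of 5 lists; dashed lines are the medians of all coding genes with a start peak, 3.57 in replicate 1 and 3.43 in replicate 2. All 3 genes lie below both lines, while Myom1, Actn3, Tpm1, Capzb, Lasp1, Vcl and Tln1 lie above both in both libraries.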

How the data were processed

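DNase-seq was carried out on 2 gastrocnemius libraries, and the deposited files for each were 2 peak lists, a footprint list and q-values by position on mm10, per the labels and the deposited notes, which derive each list from its own library. Peak signal is the authors' deposited value, and the q-value list, as deposited by the authors, holds positions below 0.05 alone. Footprints carry a constant deposited value of 0.01 and were used as positions. The labels and notes name no aligner or caller.

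The longer list of each library was used. Peaks were placed by their midpoint on GENCODE M21 gene models, starts within 1 kb, and shared peaks overlapped by 1 bp or more. Motifs were sought on both strands of 150 bp. Intervals are 95% Wilson intervals, which treat peaks as independent and cover counting error only. Depth was read from the signal steps. Scripts used Python 3.11.15, pandas 2.3.3 and pysam 0.24.0 and were tested on simulated data. Alternatives changed the list, flanks, start distance, overlap and library. Genes named are the members and, of each of 5 lists, the 3 with the highest mean start signal and those with none in either library. Some items that the rule names are not reported here. The members and lists were chosen with earlier results of these data known.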

Additional observations from a re-analysis of the deposited data

How the results depend on the processing

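Of 104 values recomputed under other settings, 81 stayed within 1.5 times of the reported count, or within 1 SD over the libraries for start signals and densities, and 23 moved. A further 12, start signals and densities of a single library, lie within 1 SD by construction and show nothing about stability. Some of the 81 could not move either. The 3 densities with genes of at least 20 kb change only the genes ranked beside the members. Neb and Nrap had 0 peaks in windows with 8 or more peaks per 10 kb, so their values without such windows were fixed. The 81 therefore overstate stability. The SD of the densities is wide, so moves beyond 1.5 times can fall within it. With the shorter list the mean peak count was 10.5 for Ttn and 3.5 for Neb, shared peaks fell to 1 for Ttn and 0 for Neb, and densities per 100 kb were 2.33 for Ttn, 1.03 for Neb and 3.57 for Nrap, against 4.49, 3.51 and 5.71 with the longer list. In the gene body alone, Ttn had 16 footprints and 3085 listed bases, and Nrap had 4.5 peaks, 9 footprints, 852 listed bases and 3 shared peaks. With 50 kb flanks, listed bases at Neb were 3136.5. With positions below 0.001, listed bases were 2480 for Ttn, 643.5 for Neb and 1551 for Nrap. Leaving out either library gave 10 to 27 peaks and 2433 to 7190 listed bases for Ttn, and 5 to 16 peaks, 8 to 35 footprints and 900 to 3166 listed bases for Neb. The order of Ttn and Neb turned with it: without replicate 2 the density was 2.15 for Ttn and 5.38 for Neb, and without replicate 1 it was 6.82 for Ttn and 1.65 for Neb. Leaving out windows with 8 or more peaks per 10 kb, chosen after seeing the data, lowered the density of Ttn to 2.87 and its mean peak count to 14. The start signal of Neb had no value at the 5′ end alone, and with the shorter list those of Neb and Nrap had no mean, because replicate 2 lacked their start peaks there. Sharing cannot be recomputed from 1 library. No paired analysis was possible because there is 1 group. With the 61664 strongest peaks of each library, the mean count was 8 for Neb and 18.5 for Ttn.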
